A study of Homo sapiens with 6 samples.

Results

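Ubiquitin enzymes that act on c-Myc were examined as transcripts in a human colorectal cancer cell line, after transfection with control siRNA or with siRNA against the long noncoding RNA GLCC1 (AF339830). The members are 10 genes named in the literature for this activity, found by their symbols among the 56638 symbols of the count files. FBXW7, SKP2, HUWE1, FBXO32 and TRIM32 are ubiquitin ligases, whereas USP28, USP22, USP36, USP37 and USP13 are deubiquitinases. All 10 passed the filter on low counts, which kept 23074 genes, and the lowest count of a member in any library was 62. Total RNA of 6 libraries was sequenced after TruSeq preparation, 3 from cells given a nonspecific siRNA and 3 from cells given GLCC1 siRNA, with no other difference in treatment named. Titles, source names and genotypes give these groups, but the names of the sequenced libraries pair each group with the opposite siRNA, and exchanging the groups would turn the sign of every difference. The labels call the cells SW480, whereas the methods of the study name DLD-1, and which line was sequenced was not tested. The labels do not say plainly which GLCC1 siRNA was used, nor that the 3 libraries of a group came from separate cultures, so the p-values measure only the spread between these libraries, which may be technical. In both groups the titles end in siRNA1, siRNA2 and siRNA3, and these numbers are called replicates here. The study lists different sequences as GLCC1 siRNA1 and GLCC1 siRNA2. Whether the numbers in the titles name replicates or different siRNAs was not tested.

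c-Myc is a short-lived transcription factor whose amount depends on how fast it is marked with ubiquitin chains and destroyed by the proteasome. Ligases attach the chains, and deubiquitinases remove them, so enzymes of opposite action compete for the same protein. FBXW7 binds c-Myc after it has been phosphorylated by GSK3, and FBXW7 is mutated in a part of colorectal cancers. The study followed c-Myc stability in relation to GLCC1, and the libraries allow the question of whether the transcripts of these enzymes differed between the 2 groups. Protein levels and ubiquitination were not part of these files.

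The libraries held 11948790 to 19042516 counted read pairs, with the fewest in GLCC1 siRNA replicate 2. This library stood apart from the other GLCC1 siRNA libraries, with a chi-square per degree of freedom of 18.1 and 19.0 against them, compared with 3.28 for the other pair of that group, so fold changes are also given without it. Its title ends in siRNA2, and whether it received a different siRNA was not tested. The share of read pairs on no gene ranged from 9.82% to 10.1% in the control libraries and was higher in each GLCC1 siRNA library, at up to 12.7%, and its part in the members' levels was not tested. Epithelial markers were present in every library, from 73.5 CPM (normalized counts scaled to the library size) for CDX2 in its lowest library to 3768 CPM for KRT8 in its highest, and 4 of 6 fell with GLCC1 siRNA, including KRT8 and KRT18. Markers of other cell types were at or near 0 counts, PTPRC and PECAM1 at 0 in every library and COL3A1, CD68 and CHGA at no more than 7, except COL1A1, which was at 6.68 to 15.0 CPM and fell. GLCC1 has no row of its own in the files. FARP1, the gene that contains its locus, fell from 110.5 ± 2.13 to 64.8 ± 1.32 CPM (SD, n = 3), a log2 fold change of -0.77 (SE 0.08). All 12 genes of an interferon list rose in the GLCC1 siRNA libraries with a median log2 fold change of 1.80, among them IFIT1, IFIT2 and DDX58, and the part of this in the members' levels was not tested.

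Of the 10 members, 4 rose, 2 fell and 4 did not pass an adjusted p of 0.05 in the GLCC1 siRNA libraries (edgeR's quasi-likelihood test with Benjamini-Hochberg adjustment over all tested genes). FBXW7, SKP2, USP37 and USP13 rose, HUWE1 and USP28 fell, and FBXO32, TRIM32, USP22 and USP36 did not pass. Each class of enzyme moved in both directions, with 2 ligases up and 1 down, and 2 deubiquitinases up and 1 down. The 6 members called (60.0%) stand against 31.6% of all tested genes, of which 14.9% rose and 16.7% fell. Among the 14875 genes averaging 1 CPM or more, where all members lie, 45.1% were called, 20.3% up and 24.8% down. The groups did not overlap for 9 members, 6 above and 3 below the controls, compared with 46.3% of tested genes. That share includes genes under 1 CPM, where no member lies, and was not taken for the 14875 genes alone. The median log2 fold change of the members was 0.22, against 0.03 over all tested genes and -0.03 over those averaging 1 CPM or more. With library totals as the only normalization, this median of all genes rose to 0.15 and the calls over all genes turned from 3429 up and 3864 down to 4735 up and 2797 down, while the members had 6 up and 2 down. With 3 libraries against 3, the smallest two-sided p of an exact permutation test is 0.1, which was the value for each member except USP36, at 0.9. Without GLCC1 siRNA replicate 2, 9920 genes were called in place of 7293, and 9 members in place of 6. Calls gained by leaving this library out are thus not particular to the members or lists. Fewer RNA copies per cell and fewer cells with the RNA cannot be told apart in such bulk libraries.

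**Figure D1:**
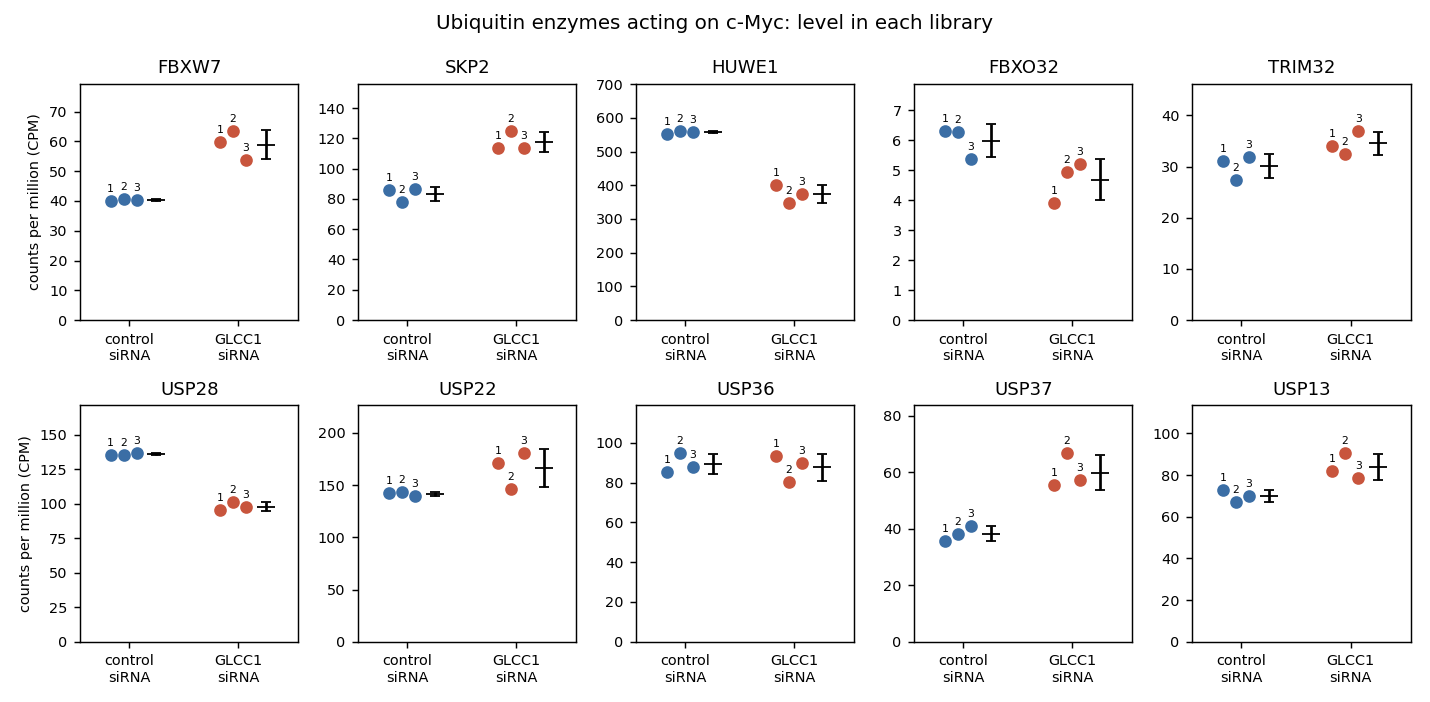
Level of each member in every library, in TMM-normalized CPM on axes that start at 0, blue points for control siRNA and red points for GLCC1 siRNA, numbered by replicate, with the mean and SD of 3 libraries beside them. The groups overlap in USP36 but not in the other 9 members, and in HUWE1, USP28 and FBXO32 the GLCC1 siRNA libraries lie below the controls.

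**Figure D2:**
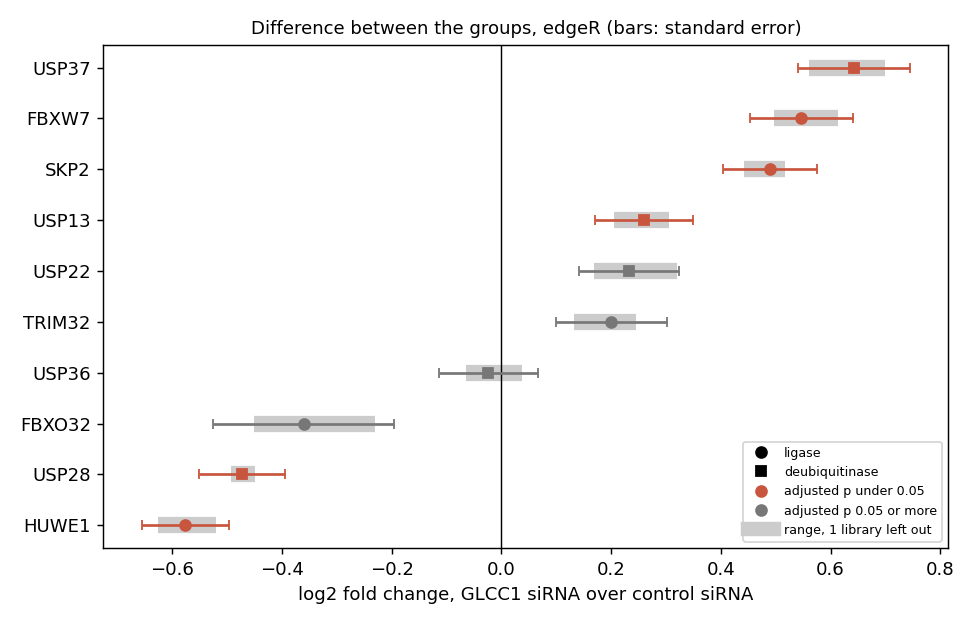
Log2 fold change of each member, GLCC1 siRNA minus control siRNA, from edgeR, with a standard error derived from the F statistic of its test. Circles are ligases and squares deubiquitinases, red where the adjusted p was under 0.05, over gray bands for the range with 1 library left out. The values run from -0.58 for HUWE1 to 0.64 for USP37.

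FBXW7, the substrate receptor that directs a ligase of the SCF type to phosphorylated c-Myc, lies on the minus strand at chr4:153241696-153457244 of hg19. It was measured at 40.0, 40.7 and 40.2 CPM in control replicates 1 to 3 and at 59.7, 63.5 and 53.7 CPM in the GLCC1 siRNA libraries. The control libraries lay within 1 CPM of each other, and every GLCC1 siRNA library was above them. FBXW7 thus rose from 40.3 ± 0.352 to 59.0 ± 4.96 CPM (SD, n = 3), a log2 fold change of 0.55 (SE 0.09, adjusted p = 0.00053 in edgeR), or 0.50 without GLCC1 siRNA replicate 2. The count adds up the isoforms of FBXW7, which differ in their place in the cell, and these were not separated.

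SKP2 is another F-box receptor among the members. It ubiquitinates c-Myc but also acts as a coactivator of c-Myc transcription, and it targets the cell cycle inhibitor p27 with the help of CKS1B. The gene lies on the plus strand at chr5:36152091-36196951 of hg19 and shares 2.10% of its merged exon bases with NADK2. Its control libraries stood at 85.6, 78.1 and 86.8 CPM and its GLCC1 siRNA libraries at 113.6, 125.0 and 113.4 CPM. All GLCC1 siRNA libraries were above all controls, with the highest value in replicate 2. SKP2 rose from 83.5 ± 4.69 to 117.3 ± 6.61 CPM, a log2 fold change of 0.49 (SE 0.09, adjusted p = 0.00067), or 0.45 without replicate 2.

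HUWE1 is a very large ligase of the HECT type, which attaches ubiquitin to c-Myc, to its partner MIZ1 and to MCL1, and its effect on c-Myc has been described in both directions. The gene spans chrX:53559057-53713697 of hg19 on the minus strand, with 85 exons in its canonical transcript. Its level was 553, 561 and 558 CPM in the control libraries and 402, 346 and 374 CPM in the GLCC1 siRNA libraries. The groups were far apart, and GLCC1 siRNA replicate 2 was the lowest library. HUWE1 fell from 557.5 ± 4.08 to 373.9 ± 27.9 CPM, a log2 fold change of -0.58 (SE 0.08, adjusted p = 9.1e-05), or -0.52 without replicate 2.

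FBXO32, also called atrogin-1 and known from muscle wasting, is an F-box receptor that has been reported to act on c-Myc. It was the member with the fewest counts, between 62 and 114 per library. The control libraries held 6.31, 6.28 and 5.36 CPM and the GLCC1 siRNA libraries 3.91, 4.93 and 5.20 CPM. The groups did not overlap, although the highest GLCC1 siRNA library lay just under the lowest control. Its log2 fold change of -0.36 (SE 0.16) did not pass (adjusted p = 0.115), whereas without GLCC1 siRNA replicate 2 it was -0.39 with an adjusted p of 0.045. Without GLCC1 siRNA replicate 1, its lowest library, it was -0.23 with an adjusted p of 0.370.

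TRIM32, a ligase of the RING type linked to neural differentiation and muscle disease, stood at 31.1, 27.4 and 31.9 CPM in the control libraries and at 34.1, 32.5 and 37.0 CPM in the GLCC1 siRNA libraries. The lowest GLCC1 siRNA library was just above the highest control. The log2 fold change was 0.20 (SE 0.10, adjusted p = 0.154), and without GLCC1 siRNA replicate 2 it was 0.24 with an adjusted p of 0.0080. Without control replicate 2, its lowest library, it was 0.13 with an adjusted p of 0.457. TRIM32 lies within the gene ASTN2 but shares no exon bases with it in the annotation, where it lies on the plus strand at chr9:119449584-119463579 of hg19.

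USP28 is the deubiquitinase that binds FBXW7 and reverses its action on c-Myc. The gene lies on the minus strand at chr11:113668596-113746294 of hg19. Its control libraries stood at 135.6, 135.8 and 137.2 CPM and its GLCC1 siRNA libraries at 95.4, 101.2 and 97.7 CPM. The spread was small in both groups and the groups were far apart. USP28 fell from 136.2 ± 0.862 to 98.1 ± 2.94 CPM, a log2 fold change of -0.47 (SE 0.08, adjusted p = 0.00041), or -0.49 without GLCC1 siRNA replicate 2.

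USP37, which removes ubiquitin from c-Myc and from cyclin A, rose with the largest log2 fold change among the members. It was at 35.5, 38.2 and 41.0 CPM in the control libraries and at 55.5, 66.9 and 57.1 CPM in the GLCC1 siRNA libraries. Every GLCC1 siRNA library was above every control, and replicate 2 was the highest. USP37 went from 38.2 ± 2.72 to 59.8 ± 6.17 CPM, a log2 fold change of 0.64 (SE 0.10, adjusted p = 0.00031), or 0.56 without replicate 2. The gene spans chr2:219314974-219433074 of hg19 on the minus strand, and 32.8% of the 9280 bases of its merged exons are also exon of VIL1. VIL1, the villin of the intestinal brush border, was at 205.2 ± 6.53 CPM and 237.2 ± 16.9 CPM, a log2 fold change of 0.21 with an adjusted p of 0.067. Union mode leaves out read pairs that fall on both genes if the counting ignores the strand, but the strand setting is not given. How far USP37 and VIL1 share counts was not tested.

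USP13, which has been reported to remove ubiquitin from c-Myc, stood at 72.6, 67.2 and 69.9 CPM in the control libraries and at 81.8, 90.8 and 78.6 CPM in the GLCC1 siRNA libraries. The groups did not overlap, and replicate 2 was again the highest. USP13 rose from 69.9 ± 2.72 to 83.7 ± 6.28 CPM, a log2 fold change of 0.26 (SE 0.09) with an adjusted p of 0.039, close to the threshold. The adjusted p was 0.065 without GLCC1 siRNA replicate 1 and 0.085, 0.162 and 0.135 without control replicate 1, 2 or 3, so the call rests on having all these libraries. Without GLCC1 siRNA replicate 2 the log2 fold change was 0.20 and the adjusted p 0.0037. The gene lies on the plus strand at chr3:179370820-179522154 of hg19, where 16.3% of its merged exon bases are shared with PEX5L and 1 unnamed gene, and PEX5L was measured at under 1 CPM in every library.

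USP22 is the catalytic subunit of the deubiquitinase module of the SAGA coactivator, which removes ubiquitin from histone H2B and has been reported to act on c-Myc. It lies on the minus strand at chr17:20902909-20947073 of hg19 and shares 13.3% of its merged exon bases with CCDC144NL-AS1 and 1 unnamed gene. The control libraries were at 142.4, 142.9 and 139.1 CPM and the GLCC1 siRNA libraries at 171.2, 146.3 and 181.0 CPM. Replicate 2 lay just above the controls and the other two well above. The log2 fold change of 0.23 (SE 0.09) did not pass (adjusted p = 0.067), whereas without replicate 2 it was 0.32 with an adjusted p of 1.5e-06. Leaving replicate 2 out raised the calls over all genes from 7293 to 9920.

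USP36, a nucleolar deubiquitinase that opposes the nucleolar form of FBXW7 on c-Myc, was the member whose groups overlapped, and lies on the minus strand at chr17:76783463-76837523 of hg19. Its levels were 85.1, 95.1 and 87.8 CPM in the control libraries and 93.2, 80.3 and 89.9 CPM in the GLCC1 siRNA libraries. The means were 89.3 ± 5.15 and 87.8 ± 6.71 CPM, with a log2 fold change of -0.02 (SE 0.09, adjusted p = 0.865). MYC itself, whose messenger RNA is a separate measure from the protein these enzymes act on, was at 155.2, 140.1 and 151.0 CPM in the control libraries and at 118.2, 89.1 and 112.0 CPM in the GLCC1 siRNA libraries. MYC fell by 0.48 on the log2 scale (SE 0.10, adjusted p = 0.0030), with replicate 2 the lowest library.

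The promoters of the members were searched for CACGTG, the E-box that c-Myc and MAX bind. The promoter table of RefSeq on GRCh38.p14 (250 bases before to 50 after each start) held 8 of the 10 members, and those not held were FBXO32 and USP37. CACGTG, which reads the same on both strands, was found in 1 promoter each of USP28 and USP36, 2 of the 15 promoters of these 8 members (13.3%), and in 7.26% of the 35116 promoters of all genes. In USP28, which fell, the E-box begins 174 bases before the start, and in USP36, which did not pass, 27 bases before the start of 1 of its 2 promoters. These promoters are shown as the ones with the E-box, in capitals, from chr11:113875523-113875822 and chr17:78840765-78841064 on the minus strand of GRCh38.p14.
USP28 promoter: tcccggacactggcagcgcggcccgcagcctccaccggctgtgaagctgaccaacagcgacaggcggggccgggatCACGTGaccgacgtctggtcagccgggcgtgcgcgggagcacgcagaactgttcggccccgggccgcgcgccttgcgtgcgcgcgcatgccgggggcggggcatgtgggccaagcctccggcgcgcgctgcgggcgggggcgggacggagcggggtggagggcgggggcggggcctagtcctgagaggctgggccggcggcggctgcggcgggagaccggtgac
USP36 promoter: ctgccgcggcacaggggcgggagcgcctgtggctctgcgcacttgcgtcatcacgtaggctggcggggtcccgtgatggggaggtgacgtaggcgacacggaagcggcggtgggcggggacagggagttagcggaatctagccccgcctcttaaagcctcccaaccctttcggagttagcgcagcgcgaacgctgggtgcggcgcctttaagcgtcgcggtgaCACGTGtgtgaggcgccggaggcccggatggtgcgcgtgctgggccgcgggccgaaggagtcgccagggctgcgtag
A match describes these letters only, and binding was not measured. The 2 promoters with the E-box belong to a member that fell and a member whose groups overlapped. With 15 promoters in all and the E-box in 7.26% of the promoters of all genes, few matches were to be found. No link between the E-box and the direction of change can be read from them.

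Ratios of counts between 2 members within a library do not depend on the normalization. The pairs were chosen after the values were seen, so the ratios are given without a test. The ratio of FBXW7 to USP28 was 0.295, 0.300 and 0.293 in the control libraries and 0.626, 0.628 and 0.550 in the GLCC1 siRNA libraries, 2.03 times as high on average. The values of the groups did not overlap, as must hold where every library was above the controls for 1 member and below for the other. The same holds for USP37 to USP28 and for HUWE1 to SKP2, so these ratios restate the changes given above. The ratio of USP37 to USP28 was 0.281 ± 0.0183 in the control and 0.609 ± 0.0449 in the GLCC1 siRNA libraries (SD, n = 3). HUWE1 had 6.46, 7.18 and 6.43 counts for each count of SKP2 in the control libraries and 3.54, 2.77 and 3.30 in the GLCC1 siRNA libraries. The ratio of SKP2 to FBXW7, which both rose, was 2.07 ± 0.133 in the control and 1.99 ± 0.108 in the GLCC1 siRNA libraries, with overlapping values.

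Levels of different genes were compared as CPM per kilobase, with the length of the canonical transcript. In the control libraries HUWE1 was the highest member at 37.9 ± 0.277 CPM per kilobase, followed by USP28 at 28.1 ± 0.178, USP22 at 27.3 ± 0.400 and SKP2 at 22.5 ± 1.26. Each of these differed from the next without overlap. FBXO32 was the lowest at 0.887 ± 0.0801, and USP13 and TRIM32, at 8.69 ± 0.338 and 8.11 ± 0.648, overlapped. In the GLCC1 siRNA libraries USP22 at 32.0 ± 3.45 and SKP2 at 31.6 ± 1.78 came first and overlapped, above HUWE1 at 25.4 ± 1.90 and USP28 at 20.2 ± 0.606. FBXW7, USP13 and TRIM32 overlapped in turn at 10.5 ± 0.880, 10.4 ± 0.781 and 9.30 ± 0.607. The position of SKP2 depends on the length used, since with all exons merged it stood 6th in both groups at 4.81 and 6.75 CPM per kilobase. Other positions also shifted with all exons merged. In the GLCC1 siRNA libraries TRIM32 then stood 5th at 9.14 CPM per kilobase and FBXW7 9th at 5.22. TRIM32 then lay above FBXW7 and USP13 without overlap. With either length HUWE1 was highest in the control libraries and FBXO32 lowest in both groups. USP22 had the highest mean in the GLCC1 siRNA libraries with either length, but overlapped SKP2 with the canonical transcript and HUWE1 with all exons merged, so it did not stand apart from them.

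**Figure D3:**
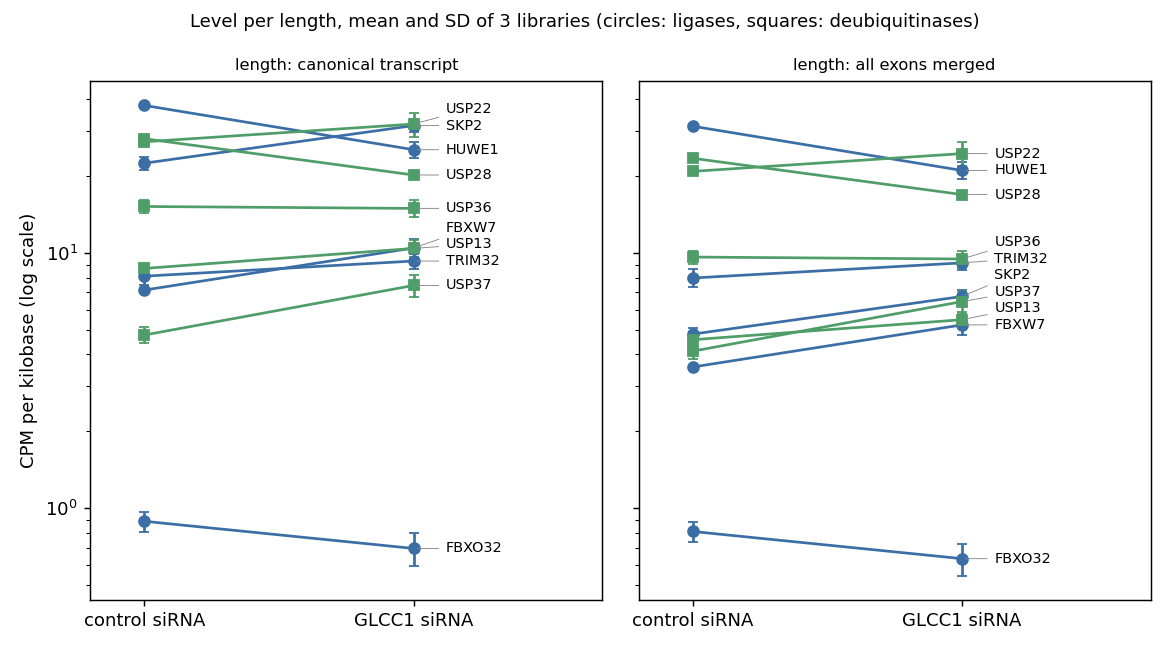
Level per kilobase of each member, mean and SD of 3 libraries on a log axis, in the control siRNA and GLCC1 siRNA libraries, for the canonical transcript (left) and all exons merged (right). HUWE1 leads in the control siRNA libraries and FBXO32 lies lowest with both lengths, whereas in the GLCC1 siRNA libraries USP22 has the highest mean but overlaps SKP2 (left) or HUWE1 (right).

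Other genes of the pathway were taken from lists written by hand, without the members, and are described by their counts and medians. Some genes, such as BTRC and USP7, stand on more than 1 list. For comparison, 31.6% of all tested genes were called. Among genes averaging 1 CPM or more it was 45.1%, 20.3% up and 24.8% down. The list of SCF core and neddylation genes, which holds both positive and negative regulators, had 4 genes up, 7 down and 9 that did not pass among 20. Its median log2 fold change was -0.11. CKS1B, the cofactor of SKP2, fell from 49.96 ± 1.85 to 20.5 ± 1.09 CPM, a log2 fold change of -1.28 (SE 0.09, adjusted p = 4.6e-07). SKP2 and its cofactor thus moved in opposite directions. UBE2F and UBE2M, the enzymes that pass NEDD8 to cullins, fell with log2 fold changes of -0.81 and -0.42. CUL1, the scaffold of the SCF, and the ubiquitin-conjugating enzymes UBE2R2 and UBE2D3 rose by 0.38, 0.41 and 0.34. The 7 genes down became 4 without GLCC1 siRNA replicate 1 or 3 or control replicate 1, and 2 without control replicate 2 or 3. The balance of the list turned to 6 up and 2 down with library totals only.

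Of 14 other ligases and ligase subunits reported for c-Myc, 5 rose and 3 fell, with a median log2 fold change of 0.02, and 6 rose and 2 fell with library totals only. BTRC, the F-box protein beta-TrCP, rose from 48.8 ± 2.86 to 84.5 ± 5.44 CPM (log2 fold change 0.79, SE 0.09), and SPOP rose by 0.51. DDB1, the adaptor of CUL4 ligases, fell from 556.8 ± 16.0 to 240.7 ± 3.55 CPM (log2 fold change -1.21, SE 0.07). STUB1, the ligase CHIP that works with chaperones, and CRY2 fell with log2 fold changes of -0.93 and -0.29. The 3 other deubiquitinases reported for c-Myc that were tested fell, with log2 fold changes of -0.46 for USP7, -0.53 for USP16 and -0.83 for USP2. Among all genes averaging 1 CPM or more, 24.8% fell. USP2 averaged only 5.95 CPM in the control and 3.37 CPM in the GLCC1 siRNA libraries. Among the 5 member deubiquitinases 2 rose and 1 fell, and a difference between these small sets was not tested. USP29 was not tested because of low counts.

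Among 12 genes that act on the phosphorylation of c-Myc before FBXW7 binds it, 1 rose and 3 fell. GSK3B rose by 0.47 on the log2 scale and GSK3A had a log2 fold change of -0.48, so the paralogs of the kinase that marks c-Myc for FBXW7 moved in opposite directions. SET, an inhibitor of the phosphatase PP2A, and the kinase PLK1 fell with log2 fold changes of -0.74 and -0.56. Without GLCC1 siRNA replicate 2, the number of this list that rose was 3. Of the 6 tested genes of the USP22 module and its alternative enzymes, USP27X rose by 0.69 and the other 5 did not pass, whereas 4 rose without replicate 2 and 4 with library totals only. Among the closest relatives of the members, USP42, the relative of USP36, rose by 0.67 on the log2 scale. USP25, the paralog of USP28, and USP5, the paralog of USP13, fell with log2 fold changes of -0.36 and -0.28, and these 2 falls became 1 or 0 when any library but GLCC1 siRNA replicate 2 was left out, and 0 with library totals only.

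**Figure D4:**
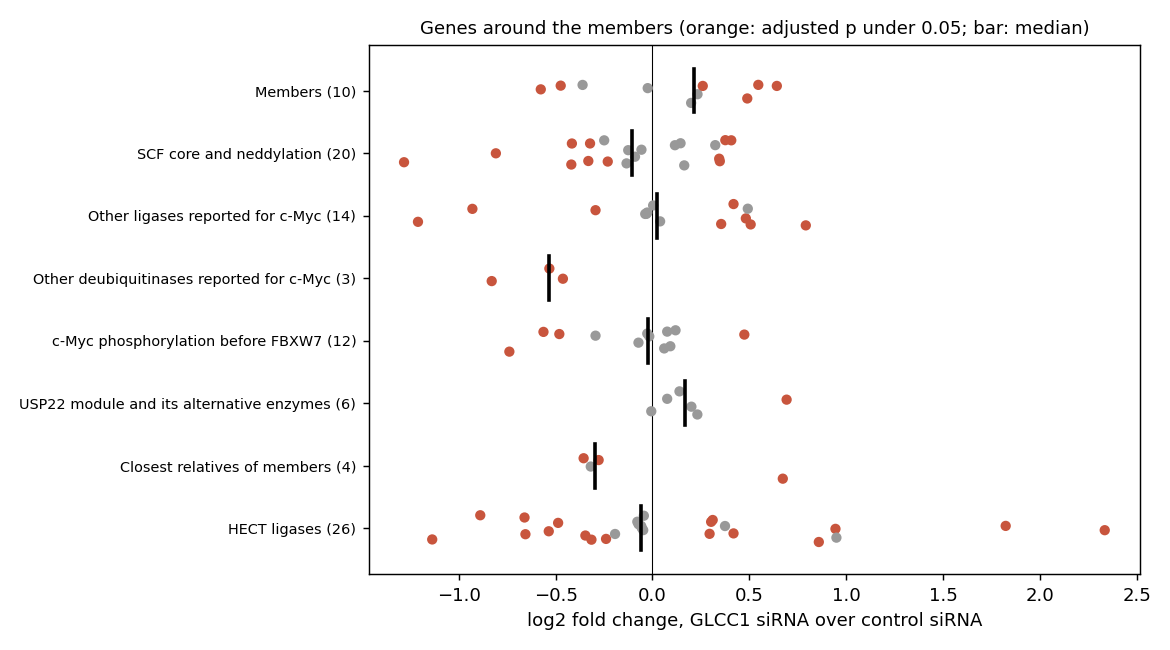
Log2 fold change, GLCC1 siRNA minus control siRNA, of the members and of the tested genes of each list without the members, 1 point a gene, red where the adjusted p was under 0.05, with a bar at the median. The 3 other deubiquitinases all lie below 0, and the SCF and HECT lists have called genes on both sides of it.

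Of the tested genes without the members, 34.4% were called in the F-box, 52.3% in the USP and 65.4% in the HECT family. Over all tested genes it was 31.6%, and 45.1% of those averaging 1 CPM or more. Within their families the members were placed among genes averaging 1 CPM or more. FBXW7 was the 4th and SKP2 the 6th highest of 58 F-box genes by log2 fold change, and FBXO32 the 16th lowest. The F-box genes other than the members had 5 up, 16 down and 40 that did not pass, with a median log2 fold change of -0.07, and there were 11 up and 20 down without GLCC1 siRNA replicate 2 and 11 up and 13 down with library totals only. Besides BTRC, FBXL17 and FBXO30 rose by 1.01 and 0.54 on the log2 scale, while FBXL19, FBXO2 and FBXO21 had log2 fold changes of -0.85, -0.92 and -0.55 and fell. Among 47 USP genes USP37 was the 6th highest, USP13 the 11th and USP22 the 13th, and USP28 was the 7th lowest. The other USP genes had 10 up and 13 down of 44, with a median of -0.08, and this balance turned to 16 up and 9 down with library totals only. USP18, which removes ISG15 and belongs to the interferon list, rose by 1.74 on the log2 scale, and USP40 rose by 0.80. USP48 and USP4 fell with log2 fold changes of -0.52 and -0.46, close to that of USP28. HUWE1 was the 5th lowest of 26 HECT ligases, where the others had 8 up and 9 down of 26 tested, and the 8 became 5 without control replicate 2, while library totals only gave 9 up and 6 down. The ligases HERC5 and HERC6, which interferon induces, and UBE3A rose by 2.34, 1.82 and 0.86 on the log2 scale. HECTD3, UBE3B and NEDD4L fell with log2 fold changes of -1.14, -0.89 and -0.66, beside -0.58 for HUWE1.

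**Figure D5:**
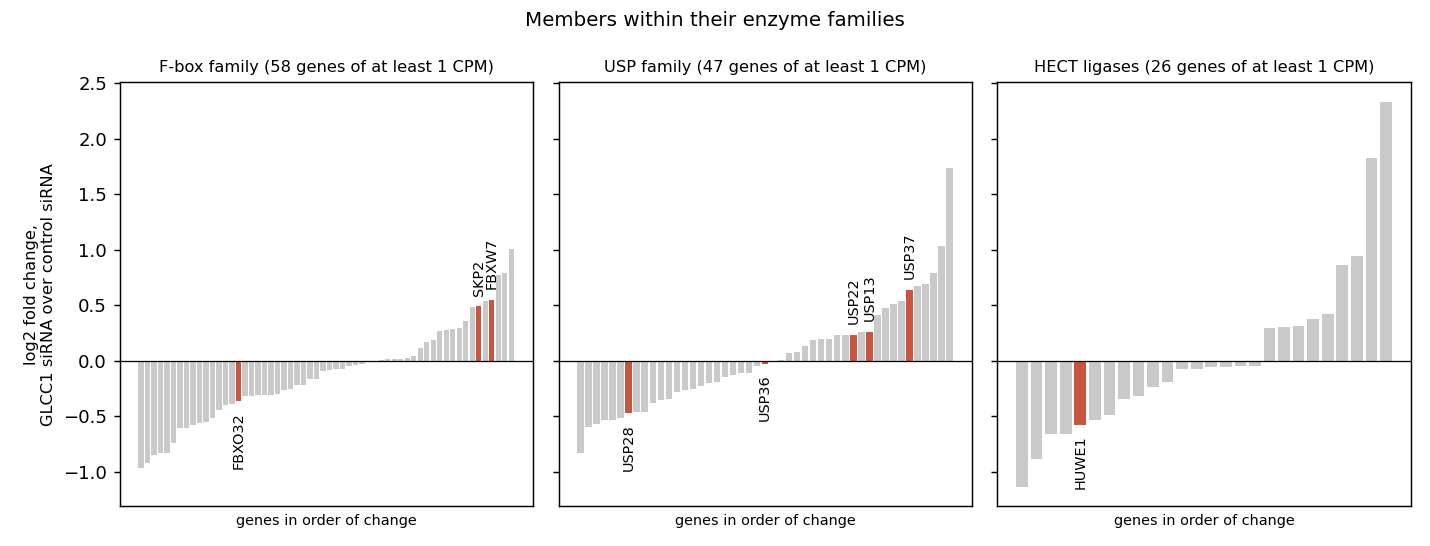
Log2 fold change, GLCC1 siRNA minus control siRNA, of the genes of the F-box, USP and HECT families averaging 1 CPM or more, as bars in order of change, with members in red and named. FBXW7 and SKP2 lie near the upper end of 58 F-box genes, USP28 near the lower end of 47 USP genes and HUWE1 near the lower end of 26 HECT genes.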

How the data were processed

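The authors mapped paired-end reads to hg19 with TopHat2 2.0.11, counted read pairs per gene symbol with HTSeq in union mode (the strand setting is not given in the sources used here), and deposited 1 file of raw counts for each of 6 libraries, without normalization or filter. They used DESeq2 for their own comparison. The tallies for reads on no gene (9.82% to 12.7%), ambiguous reads (7.30% to 7.79%) and reads not unique (10.8% to 12.4%) were left out of library sizes and tests. Genes with fewer than 5 counts summed over each group were removed. Counts were normalized with TMM factors (0.950 to 1.05) and compared with the robust quasi-likelihood test of edgeR 4.0.16 under R 4.3.3, with Benjamini-Hochberg adjustment over 23074 genes and a threshold of 0.05. CPM values use the TMM factors. The test gives no standard error, so each SE is the absolute log2 fold change divided by the square root of the test's F statistic. Positions, exons and lengths come from GENCODE 44 on hg19, and promoters from RefSeq on GRCh38.p14. The authors named an Ensembl annotation, so the exon overlaps given here may differ from those that applied when reads were counted. The exact permutation test over libraries was two-sided.

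The members and lists were chosen with earlier results of these data known. All members are named, and from each list the 3 genes with the smallest adjusted p in each direction among those past the threshold at a mean of at least 1 CPM, as well as MYC and FARP1; 1 gene that this rule names is not reported here. VIL1, PEX5L, NADK2, CCDC144NL-AS1 and ASTN2 were named for their overlap with members. Alternatives were DESeq2 1.42.0, its size factors in edgeR, library totals only, a filter of 1 count in any library or of at least 10 counts in all libraries, replicate number entered as a block, and each library left out. Lengths of all exons merged were added after seeing the data. The edgeR procedure was tested on simulated counts of 21610 genes, where it recovered 81 of 86 genes changed by 1 on the log2 scale and 113 of 114 changed by 2, and 7 of the 201 genes called were unchanged. Changes of the size seen in the members, which are smaller, were not simulated. The simulation also changed far fewer genes than were called in the data and held no library that stood apart. It therefore does not measure the error rate in these data.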

Additional observations from a re-analysis of the deposited data

How the results depend on the processing

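FBXW7, SKP2, HUWE1, USP28 and USP37 kept their direction and their call in edgeR or DESeq2 under all 12 alternatives, with log2 fold changes of 0.50 to 0.67, 0.44 to 0.61, -0.63 to -0.45, -0.49 to -0.35 and 0.56 to 0.77. USP13 passed in 7 of 12 (0.20 to 0.38, adjusted p 0.0037 to 0.162). USP22 (0.17 to 0.35, adjusted p 1.5e-06 to 0.213) passed in 4, with DESeq2, the filter of 10 counts, library totals only and without GLCC1 siRNA replicate 2. TRIM32 (0.13 to 0.32, adjusted p 0.0080 to 0.457) passed with library totals only and without that replicate, and FBXO32 (-0.45 to -0.23, adjusted p 0.045 to 0.370) without that replicate. USP36, never past the threshold, turned sign to 0.014 with the filter of 10 counts, 0.098 with library totals only, 0.038 without GLCC1 siRNA replicate 2 and 0.022 without control replicate 2 (-0.064 to 0.038 over the left-out libraries). The listed genes numbered 30 up and 51 down, and 49 up and 35 down with library totals only. Between the groups, libraries of the same replicate number had correlations of -0.29 to -0.0081, and those of different numbers -0.24 to 0.25. With so few libraries in a group, these values cannot decide whether the numbers pair the libraries. With the replicate block USP13 was at 0.26 with an adjusted p of 0.105, 5 members were called in place of 6, and 6522 genes in place of 7293. The causes of these changes were not tested. At 62 to 114 counts per library, FBXO32 had the largest standard error of the members, 0.16 on the log2 scale.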
